A study of Bos taurus with 16 samples.

Results

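Laminin chains and integrin beta subunits are described here in the prefrontal cortex (PFC) of cattle, as 7 genes: LAMA1, LAMA2, LAMB1, LAMB2, ITGB3, ITGB4 and ITGB5. They are 7 of the 27607 annotated genes in the deposited values, and they were chosen by the study's own list of genes that differed between Lidia and Wagyu bulls, where all 7 stood on the up-regulated side. Each symbol of that list was paired with the gene of identical chromosome, start and end. The tissue came from 16 non-castrated bulls of 3 to 4 years: 8 of the Lidia breed, bred for agonistic behavior, with 4 from La Quinta farm and 4 from Montealto farm, and 8 of the docile Wagyu breed, all from 1 farm. The Lidia tissue was taken after a corrida and the Wagyu tissue at a slaughterhouse, so breed, farm of origin and circumstances of death cannot be told apart. Per the paper, the Lidia bulls were also incited to agonistic behavior before the corrida, and feeding differed between the breeds. These conditions cannot be told apart from breed either. The labels call the Lidia animals aggressive and the Wagyu animals non-aggressive, and they name no treatment. By the same labels Montealto bull 4 was 4 years old and every other bull 3, so age cannot be told from that animal.

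Laminins are large proteins of the basement membrane, the thin sheet that underlies vessels, meninges and epithelia. Each laminin is built of 1 alpha, 1 beta and 1 gamma chain, and the alpha chain carries most of the sites that cells bind. Integrins are receptors made of 1 alpha and 1 beta subunit, which link such matrix proteins outside the cell to the actin or keratin skeleton inside it. In the brain, laminins are best known from the sheets around vessels and under the pia, where astrocyte end-feet, endothelial cells, pericytes and meningeal fibroblasts meet.

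Values are FPKM, a density of fragments per kilobase of exon that is scaled to the depth of each animal, summed over the transcripts of a gene and rescaled between animals by the median of ratios. The fragments behind them came to between 7.67 M and 37.0 M per animal (M for mega), taking 200 bases per fragment. Wagyu bull 5 and La Quinta bull 4 stood apart, with 7.67 M and 13.7 M fragments and rescaling factors of 2.21 and 1.78, against 0.617 to 1.13 in the other animals. Mitochondrial transcripts took 17.8 to 39.3% of the FPKM. Differences are on the log2(rescaled FPKM + 0.1) scale, which understates changes of low genes, and limma's call needed a log2 difference of 0.1 or more in size together with a Benjamini-Hochberg adjusted p not above 0.05.

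The 7 genes covered a wide range of levels. FPKM is scaled to transcript length, so levels can be set side by side. In Lidia bulls the order of mean log2 level was ITGB5, LAMB2, LAMA1, LAMB1, ITGB4, ITGB3 and LAMA2. In Wagyu bulls it was the same except that ITGB3 stood above ITGB4. Neighbours in this order were compared within each animal by exact sign-flip permutation (two-sided, 8 animals, 12 comparisons, Benjamini-Hochberg adjusted). ITGB5 stood above LAMB2 in 8 of 8 animals of either breed, by 0.79 ± 0.20 in Lidia and 1.11 ± 0.32 in Wagyu on the log2 scale (SD, adjusted p = 0.0156 for each by exact permutation). LAMB1 and ITGB4 were not separated in Lidia (0.01 ± 0.41, exact permutation adjusted p = 0.945). In Wagyu the same was true of LAMB1 and ITGB3 (0.33 ± 0.40, exact permutation adjusted p = 0.0563) and of ITGB3 and ITGB4 (0.13 ± 0.66, exact permutation adjusted p = 0.639). The other 9 neighbouring pairs, ITGB5 and LAMB2 included, passed at adjusted p of at most 0.0417 by exact permutation.

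**Figure D1:**
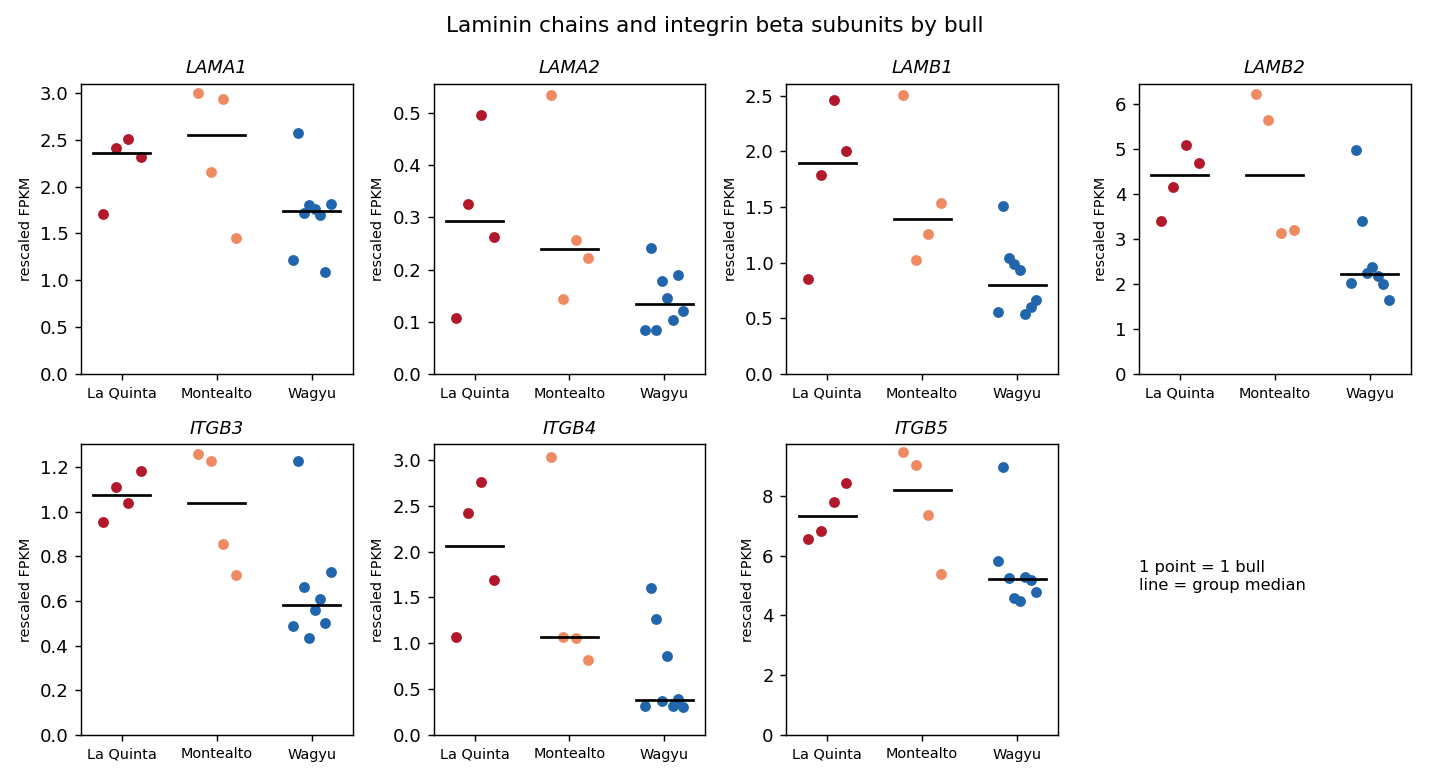
Rescaled FPKM (linear axis from 0) of each gene in 4 La Quinta, 4 Montealto and 8 Wagyu bulls, 1 point per bull, with a line at the group median. The medians of both Lidia farms lie above the Wagyu median for all 7 genes, and the highest Wagyu point in every panel is bull 3.

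LAMA1 encodes the alpha 1 chain, the chain of the laminin of early basement membranes. The gene, ENSBTAG00000018160, lies on the minus strand of chromosome 24 at 39951775 to 40062824 (ARS-UCD1.2). It was measured at 1.45 rescaled FPKM in the lowest Lidia bull, 2.36 at the median and 3.00 in the highest, and in Wagyu at 1.09, 1.74 and 2.57. The breeds overlapped: 2 of 8 Lidia bulls, both from Montealto, lay above every Wagyu bull. The log2 difference, Lidia minus Wagyu, was 0.42 ± 0.17 (SE).

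LAMA2 encodes the alpha 2 chain, known from the basement membrane of muscle and of peripheral nerve, where its loss causes a congenital muscular dystrophy. It lies on the plus strand of chromosome 9 at 67153459 to 67556512 (ENSBTAG00000010229). This was the lowest of the 7 genes, at 0.108, 0.260 and 0.534 rescaled FPKM in the lowest, median and highest Lidia bull and 0.0837, 0.134 and 0.241 in Wagyu. Only 9.94 to 119 estimated fragments stood behind a value, and the deposited Cufflinks interval of its main transcript had a median half-width of 34.7% of the estimate. The level was above all Wagyu bulls in 5 of 8 Lidia bulls, while La Quinta bull 1 lay at the bottom of the Lidia range. The log2 difference was 0.63 ± 0.23 (SE).

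The gene next to LAMA2 on the same strand, ENSBTAG00000054952, starts 45745 bases after the end of LAMA2, at 67602258 to 67688881 on chromosome 9. It carries no symbol in the study's list, where it stands under its identifier on the same side as LAMA2, and it was picked out here after its values were seen. In NCBI RefSeq's table for another assembly, ARS-UCD2.0, the gene that follows LAMA2 is ARHGAP18. Its rescaled FPKM was 0.565, 1.27 and 2.64 in the lowest, median and highest Lidia bull and 0.407, 0.621 and 1.09 in Wagyu, with a log2 difference of 0.78 ± 0.26 (SE). The ratio to LAMA2 had a median of 4.68 in Lidia and 4.34 in Wagyu. Inside the breeds it covaried with LAMA2 at Pearson's r = 0.841 in Lidia (Spearman's rho = 0.857) and 0.739 in Wagyu (rho = 0.690), a description of 8 animals each. Without the 2 animals farthest from the median of LAMA2, r was 0.780 and 0.389. Among all 16576 other tested genes, its r with LAMA2 held place 473 in Lidia and 314 in Wagyu, so many genes covaried with LAMA2 more closely. The annotated transcripts of LAMA2 had at most 42 exons and 6159 bases, and those of this gene at most 21 exons and 3102 bases. Whether the short LAMA2 model and this gene belong together was not tested. If they did, the level given for LAMA2 would cover only a part of its transcript.

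LAMB1 and LAMB2 encode beta chains that exclude each other in a laminin trimer, the beta 2 chain being the one of mature vessels, kidney and the neuromuscular synapse. LAMB1 lies on the minus strand of chromosome 4 at 48985684 to 49062759 (ENSBTAG00000011412). LAMB2 lies on the plus strand of chromosome 22 at 50883645 to 50897890 (ENSBTAG00000022635). LAMB1 was at 0.856, 1.66 and 2.51 rescaled FPKM in the lowest, median and highest Lidia bull and at 0.539, 0.803 and 1.51 in Wagyu. All 8 Lidia bulls were above the Wagyu median and 5 were above every Wagyu bull, with a log2 difference of 0.89 ± 0.24 (SE), a 1.85-fold level. LAMB2 was at 3.13, 4.41 and 6.22 in Lidia and 1.64, 2.21 and 4.96 in Wagyu. Here 6 of 8 Wagyu bulls lay below all Lidia bulls, and Wagyu bull 3 lay above the Lidia median, with a log2 difference of 0.79 ± 0.20 (SE).

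ITGB3 encodes the beta 3 subunit, which pairs with alpha V to bind vitronectin and fibronectin and with alpha IIb on platelets. It lies on the plus strand of chromosome 19 at 46329945 to 46392416 (ENSBTAG00000009987). Its rescaled FPKM was 0.718, 1.08 and 1.26 in the lowest, median and highest Lidia bull and 0.432, 0.584 and 1.23 in Wagyu. Wagyu bull 3, at 1.23, was the only Wagyu animal above the Lidia median, and 6 of 8 Wagyu bulls lay below all Lidia bulls. The log2 difference was 0.64 ± 0.17 (SE).

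ITGB4 encodes the beta 4 subunit, which pairs with alpha 6 as a laminin receptor of hemidesmosomes and has an unusually long cytoplasmic tail. It lies on the minus strand of chromosome 19 at 55840138 to 55872606 (ENSBTAG00000018169). In La Quinta bulls 1 to 4 it stood at 1.06, 2.43, 2.76 and 1.69 rescaled FPKM, and in Montealto bulls 1 to 4 at 3.03, 1.07, 1.06 and 0.822. The Wagyu bulls ran from 0.306 over a median of 0.382 to 1.60. So 3 La Quinta bulls and 1 Montealto bull were above every Wagyu bull, while Wagyu bulls 3, 4 and 6, at 1.60, 1.26 and 0.857, lay inside the Lidia range. The log2 difference of 1.33 ± 0.36 (SE), a 2.52-fold level, was the largest of the 7, and ITGB4 also varied most inside the breeds, with an SD of 0.69 in Lidia and 0.85 in Wagyu on the log2 scale. The median SD over all tested genes was 0.32 and 0.26.

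ITGB5 encodes the beta 5 subunit, the other partner of alpha V that binds vitronectin. It lies on the minus strand of chromosome 1 at 69196881 to 69312128 (ENSBTAG00000013755). It was the highest of the 7 genes, at 5.39, 7.58 and 9.48 rescaled FPKM in the lowest, median and highest Lidia bull and 4.47, 5.23 and 8.97 in Wagyu. Wagyu bull 3 was again apart, since the next Wagyu value was 5.82. The log2 difference was 0.46 ± 0.14 (SE), a 1.38-fold level.

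Over the 7 genes, Lidia minus Wagyu ran from 0.42 to 1.33 with a median of 0.64, beside a median of -0.01 over the 16577 genes tested. LAMB1, LAMB2, ITGB3 and ITGB4 were called, 4 of 7, where 3.33% of all tested genes were called higher in Lidia. This contrast chose the genes, so neither the count nor the direction supports anything. In 0 of the 7 did all Lidia values lie above all Wagyu values, which was the case for 0.386% of tested genes. Without Wagyu bull 5 and La Quinta bull 4 the differences ran from 0.40 to 1.23, and 0 of 7 genes were called by limma. In bulk tissue, fewer cells of a type and less RNA per cell cannot be told apart.

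Set against the 8 Wagyu bulls by farm, La Quinta was higher by 0.39 (LAMA1) to 1.58 (ITGB4) and Montealto by 0.44 (LAMA1) to 1.09 (ITGB4) on the log2 scale. Both comparisons share the Wagyu bulls. None of the 7 was called in either, where 0.609% of genes were called higher in La Quinta and 1.28% higher in Montealto. Here too the values describe a contrast close to the one that chose the genes.

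The choice did not use the farms of the Lidia bulls, so La Quinta against Montealto could be tested. None of the 7 genes was called, and 0.0905% of all genes were (limma, 15 of 16577). An unadjusted p under 0.05 was found for 0 of 7 members and for 5.89% of all genes (limma, 977 of 16577), so a count of 0 among 7 is near what all genes gave. ITGB4 differed most, by 0.49 ± 0.51 (SE, limma adjusted p = 0.874), La Quinta being higher. LAMB1 differed by 0.14 ± 0.34 and ITGB3 by 0.10 ± 0.24. The remaining 4 differed by -0.05 to 0.02 with standard errors of 0.20 to 0.34. With 4 animals per farm and standard errors of this size, the farms are not shown to be alike.

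**Figure D2:**
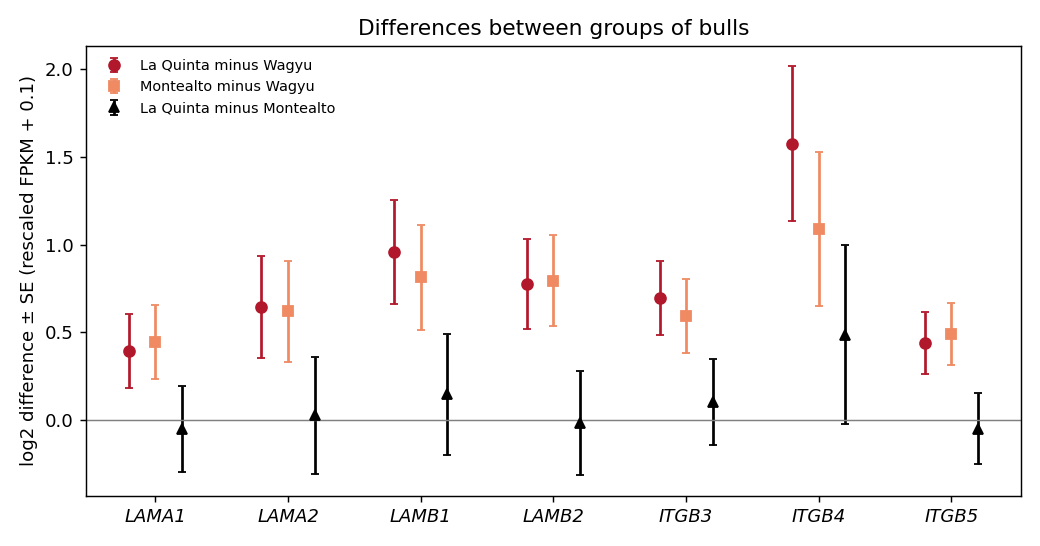
Log2 differences of rescaled FPKM with standard errors from limma for the 7 genes: La Quinta minus Wagyu (circles), Montealto minus Wagyu (squares) and La Quinta minus Montealto (triangles). Both differences to Wagyu lie above 0 for every gene and share the Wagyu bulls, and ITGB4 has the widest errors.

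The same animal tended to be at the top for every gene. Montealto bull 1 was the highest Lidia bull for 7 of 7 genes, and Wagyu bull 3 was the highest Wagyu bull for 7 of 7. La Quinta bull 1 was the lowest of its farm for 7 of 7. Covariation inside a breed was therefore examined, which the contrast between the breeds did not use. The genes were still chosen with earlier results of these data known, so these tests are not fully independent of the choice. Pearson's r was positive for 21 of 21 pairs in Lidia (0.275 to 0.942, median 0.640) and for 21 of 21 in Wagyu (0.317 to 0.909, median 0.592). Of these 42 pairs, 11 had an unadjusted exact permutation p of at most 0.05 and 3 passed Benjamini-Hochberg adjustment over the 42. Pairs of other genes were not counted, so a common positive r is not shown to be particular to the 7 genes. Leaving out Wagyu bull 3 lowered r to between -0.641 and 0.861 over the Wagyu pairs.

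LAMA2 and LAMB1 moved together in Lidia (r = 0.942, exact two-sided permutation p = 0.000942, adjusted p = 0.0365; rho = 0.952, exact permutation p = 0.00114, adjusted p = 0.0479). Without Montealto bull 1 and La Quinta bull 1 the coefficient was 0.879. After each farm was centred on its mean r was 0.949, but the call was lost when values were shuffled within farms (exact permutation p = 0.0139, adjusted p = 0.117). The adjusted call was lost without La Quinta bull 1 or 3 or Montealto bull 1 or 2, although r stayed between 0.910 and 0.977 whichever of the 8 Lidia bulls was left out. In Wagyu the same pair had r = 0.553 (exact permutation adjusted p = 0.278), which went to 0.183 without Wagyu bull 3 and 0.791 without Wagyu bull 4, and the difference between the breeds was not tested.

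LAMB2 and ITGB3 were correlated in Lidia (r = 0.874, exact permutation p = 0.00347, adjusted p = 0.0486). Their rho was 0.905 (exact permutation p = 0.00456, adjusted p = 0.0958). The r was 0.826 without Montealto bulls 1 and 3. After farm centring it was 0.901, and the call was again lost with shuffling within farms (exact permutation p = 0.0694, adjusted p = 0.223). The adjusted call was lost without any of 6 Lidia bulls, namely La Quinta 1, 2 or 4 or Montealto 1, 2 or 4, with r between 0.848 and 0.898.

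LAMB2 and ITGB4 were correlated in Wagyu (r = 0.909, exact permutation p = 0.00174, adjusted p = 0.0365). Their rho was 0.833 (exact permutation p = 0.0154, adjusted p = 0.129). Without both Wagyu bulls 3 and 4, the farthest from the LAMB2 median, r was 0.594 (exact permutation p = 0.0972). Without 1 Wagyu bull r stayed between 0.861 and 0.951. The adjusted call was lost without any one of Wagyu bulls 3, 4, 6 or 12.

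**Figure D3:**
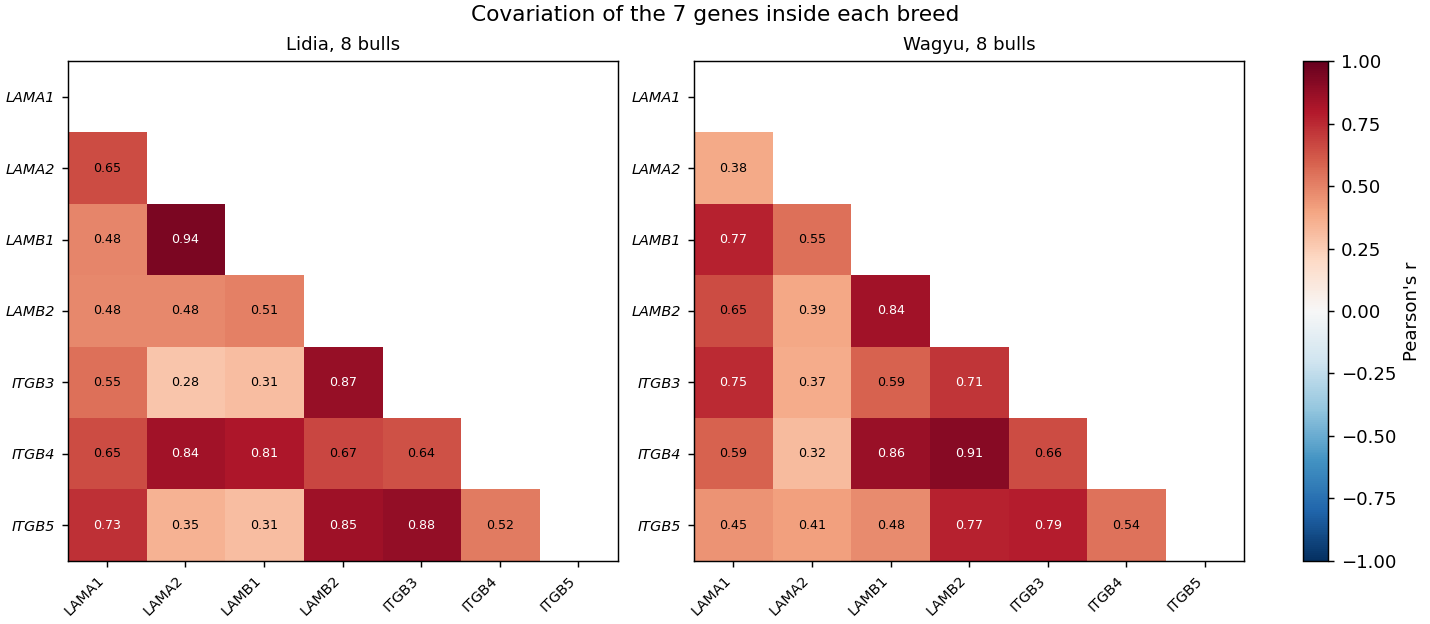
Pearson's r of log2(rescaled FPKM + 0.1) for each pair of the 7 genes over the 8 bulls of each breed, printed in each cell and colored from -1 to 1. All 42 coefficients are positive, and the strongest are LAMA2 with LAMB1 in Lidia (0.94) and LAMB2 with ITGB4 in Wagyu (0.91).

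Cortex samples hold vessels, meninges and glia in amounts that can differ between animals, so the genes were set beside 7 lists of cell type markers. Only genes of the study's list carry names here, which fixed the direction in which named markers differ between the breeds. The summed rescaled FPKM of 12 named meningeal fibroblast markers of 14, among them DCN, SLC13A4 and LUM, ran from 14.8 to 107 in Lidia and from 6.14 to 31.2 in Wagyu. The 9 of 12 named endothelial markers, with CLDN5, ENG and CDH5, ran from 38.1 to 129 and from 19.4 to 46.0. Montealto bull 2 alone was at 129, and the other 7 Lidia bulls lay between 38.1 and 49.5. The 5 of 11 named mural cell markers, with PDGFRB and NOTCH3, ran from 13.04 to 37.8 and from 6.98 to 29.3. Montealto bull 2 was again the highest Lidia bull, before 26.4 in the next, and Wagyu bull 3 the highest Wagyu bull, before 17.2.

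Glia and neurons were present in all animals. The 6 of 9 named astrocyte markers, with GFAP and AQP4, ran from 364 to 616 in Lidia and from 215 to 546 in Wagyu, and the 5 of 9 named neuron markers, with SLC17A7 and TUBB3, from 196 to 294 and from 239 to 383. The 9 of 13 named oligodendrocyte markers, with CNP and MAL, ran from 124 to 390 and from 88.5 to 265, and the 4 of 8 named microglia markers, with CX3CR1 and CD68, from 14.3 to 27.5 and from 6.94 to 15.5. No named marker was at 0 in any animal. Montealto bull 2 was also the highest Lidia bull for oligodendrocyte markers, with the other 7 at 124 to 184, and for microglia markers, with the others at 14.3 to 22.2. Without Wagyu bull 3 the highest Wagyu astrocyte sum was 311, and without Wagyu bull 1 the highest Wagyu oligodendrocyte sum was 149. Montealto bull 1 held the highest summed meningeal level among the Lidia bulls, and Wagyu bull 3 the highest meningeal, endothelial, mural, astrocyte and microglia levels among the Wagyu bulls and the lowest neuron level. Between the breeds, 7 of 12 named meningeal, 6 of 9 endothelial, 2 of 5 mural, 5 of 6 astrocyte, 1 of 9 oligodendrocyte, 2 of 4 microglia and 0 of 5 neuron markers were called by limma, all of them higher in Lidia. The neuron markers ran the other way, with 0 of 5 higher in Lidia and a median log2 difference of -0.44. Medians of the other lists were 0.56 (oligodendrocyte) to 1.88 (meningeal). Only genes that differed between the breeds in the study carry names, so these counts were largely fixed by the choice. Of all tested genes, 3.33% were called higher in Lidia. Unnamed markers could not be followed. Between the farms 0 of the 50 named markers were called, and 3, or about the 5.89% of all genes, had an unadjusted p of at most 0.05. How far these levels account for the values of the 7 genes was not tested.

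Of 98 combinations of gene, list and breed, 12 passed the adjustment over the 98 and 32 had an unadjusted exact permutation p of at most 0.05. How often other genes would pass with the same lists was not tested. The 7 genes and the named markers all came from the list of genes that differed between the breeds. They were therefore not chosen independently of each other. None of the 7 combinations called in Lidia kept its adjusted call after farm centring with shuffling within farms. The exact permutation adjusted p there ran from 0.0664 to 0.181. In that shuffling p cannot go below 0.00347, which is where LAMB1 with the meningeal list stood. All 7 coefficients were at least as large in size after centring, so a lost call does not show a weaker relation. LAMB1 followed the meningeal fibroblast markers in Lidia (r = 0.968, exact permutation p = 0.000248, adjusted p = 0.00729). Its rho was 0.976 (exact permutation p = 0.000397, adjusted p = 0.0130), r was 0.969 without La Quinta bull 1 and Montealto bull 2, and 0.983 after farm centring (exact permutation adjusted p = 0.0664). LAMA2 followed the same list in Lidia (r = 0.899, exact permutation p = 0.00193, adjusted p = 0.0271). Its rho was 0.929 (exact permutation p = 0.00223, adjusted p = 0.0497), and r was 0.843 without Montealto bull 1 and La Quinta bull 1. In Wagyu the coefficients were 0.777 for LAMB1 and 0.358 for LAMA2, with exact permutation adjusted p of 0.110 and 0.533. There LAMB1 had a higher r with the mural (0.880), endothelial (0.855) and astrocyte list (0.808), each without an adjusted call. Its r was 0.633 with the microglia, -0.276 with the oligodendrocyte and -0.209 with the neuron list. In Lidia r of LAMB1 with the mural list was 0.136, but 0.788 without Montealto bull 2. Whether any list mattered apart from the others was not tested for LAMB1. The Wagyu value of LAMA2 hung on single bulls, going to 0.821 without Wagyu bull 4 and to -0.180 without Wagyu bull 3.

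ITGB4 passed with the endothelial and mural lists in Wagyu, but these lists did not stand alone. Its r was 0.877 with the meningeal list (exact permutation adjusted p = 0.0774), 0.816 with the microglia and 0.742 with the astrocyte list. It was -0.0599 with the oligodendrocyte and -0.464 with the neuron list. Whether any list mattered apart from the others was not tested for ITGB4. With the endothelial markers r was 0.933 (exact permutation p = 9.92e-05, adjusted p = 0.00729; rho = 0.976, exact permutation p = 0.000397, adjusted p = 0.0130), and 0.799 without Wagyu bulls 3 and 4. With the mural cell markers r was 0.902 (exact permutation p = 0.000298, adjusted p = 0.00729; rho = 0.905, exact permutation p = 0.00456, adjusted p = 0.0497), and 0.778 without the same bulls. In Lidia r with the endothelial list was -0.03 and with the mural list 0.29, but without Montealto bull 2 these were 0.448 and 0.819. The highest Lidia r of ITGB4 was with the meningeal list, at 0.872 (exact permutation adjusted p = 0.0674). The difference between breeds was not tested. In Wagyu, LAMB2 had r = 0.926 with the meningeal, 0.914 with the mural and 0.858 with the astrocyte list, each without an adjusted call. Its r was -0.0789 with the oligodendrocyte and -0.625 with the neuron list. In Lidia r of LAMB2 was -0.817 with the neuron, 0.795 with the astrocyte and 0.698 with the endothelial list, each without an adjusted call. With the microglia, meningeal and oligodendrocyte lists it was 0.492, 0.488 and 0.366 there. Whether any list mattered apart from the others was not tested for LAMB2. LAMB2 followed the endothelial list in Wagyu at r = 0.980 (exact permutation p = 0.000893, adjusted p = 0.0175; rho = 0.857, exact permutation p = 0.0107, adjusted p = 0.0875), with 0.826 without bulls 3 and 4. It followed the mural list in Lidia at r = 0.852 (exact permutation p = 0.00506, adjusted p = 0.0451; rho = 0.905, exact permutation p = 0.00456, adjusted p = 0.0497), with 0.844 without Montealto bulls 1 and 3. LAMB2 also passed with the microglia list in Wagyu at r = 0.840 (exact permutation p = 0.00149, adjusted p = 0.0243; rho = 0.905, exact permutation p = 0.00456, adjusted p = 0.0497), with 0.75 without bulls 3 and 4.

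The astrocyte markers gave positive r with all 7 genes in both breeds, from 0.606 to 0.908 in Lidia and from 0.307 to 0.879 in Wagyu. Without Wagyu bull 3 the Wagyu r was -0.573 for LAMA2 and -0.132 for ITGB5, and 0.476 to 0.773 for the other genes. LAMA1 passed in both breeds, at r = 0.908 in Lidia (exact permutation p = 0.00580, adjusted p = 0.0474) and 0.879 in Wagyu (exact permutation p = 0.00407, adjusted p = 0.0443). Without the 2 animals farthest from the LAMA1 median, r was 0.544 in Lidia and 0.451 in Wagyu (exact permutation p = 0.256 and 0.228). These were Montealto bull 4 and La Quinta bull 1, and Wagyu bulls 9 and 3. Leaving out the farthest animals narrows the range, so a lower r does not show that a relation rests on them. Without 1 bull r stayed between 0.819 and 0.984 in Lidia and between 0.773 and 0.908 in Wagyu. For ITGB4 in Lidia r went from 0.794 (exact permutation adjusted p = 0.0451) to 0.593 without Montealto bull 1 and La Quinta bull 3. For ITGB5 in Lidia the coefficient went from 0.888 (exact permutation adjusted p = 0.0443) to 0.630 without Montealto bulls 4 and 1. The rho of these 4 relations was 0.738, 0.810, 0.810 and 0.905, with an exact permutation adjusted p of 0.173, 0.142, 0.142 and 0.0497.

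ITGB5 ran opposite to the neuron markers in Lidia (r = -0.966, exact permutation p = 0.000149, adjusted p = 0.00729). Its rho was -0.976 (exact permutation p = 0.000397, adjusted p = 0.0130), and r was -0.956 without Montealto bulls 4 and 1 and -0.970 after farm centring (exact permutation adjusted p = 0.0888). In Wagyu r was -0.846 (exact permutation p = 0.00833, adjusted p = 0.0583). All 14 coefficients of the 7 genes with the neuron list were negative, but in Wagyu this hung on bull 3. Without that bull r was 0.798 for LAMA1, 0.546 for LAMB1, 0.167 for LAMA2 and 0.121 for ITGB3. LAMB2, ITGB4 and ITGB5 stayed negative, at -0.139, -0.0198 and -0.732. LAMB1 with the meningeal list, ITGB4 with the endothelial and the mural list and ITGB5 with the neuron list kept their adjusted call whichever bull of the breed was left out. The other 8 called combinations lost it without at least 3 of the bulls, taken singly.

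**Figure D4:**
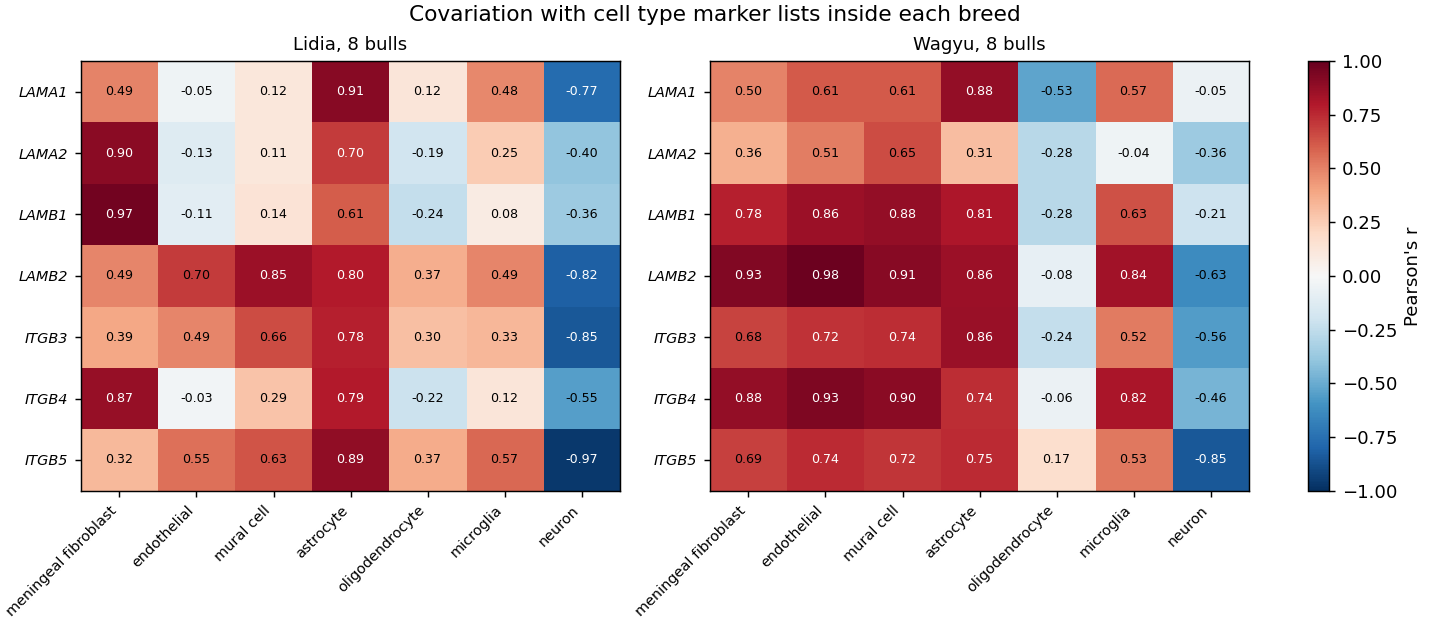
Pearson's r over the 8 bulls of each breed between each gene and the mean log2 level of the named genes of 7 cell type marker lists, printed in each cell and colored from -1 to 1. In Lidia, LAMA2, LAMB1 and ITGB4 are high with the meningeal column and between -0.13 and -0.03 with the endothelial one, while LAMB2 is 0.70 with the endothelial and 0.85 with the mural column. Without Montealto bull 2 the endothelial values of LAMA2, LAMB1 and ITGB4 are 0.485, 0.546 and 0.448.

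For each gene, the 3 named genes most like it were taken by the mean of the Lidia and Wagyu r, over 8 animals each, as a description. LAMA1 was closest to PLPP3 (mean r 0.918), GJA1, the astrocyte connexin (0.886), and GAREM2 (0.879). LAMA2 was closest to COL12A1 (0.852), BICC1 (0.842) and NID2, a basement membrane protein that binds laminin (0.829). LAMB1 was closest to EMILIN1 (0.955), an elastic fiber protein, to the transcription factor TBX18 (0.933) and to RECK (0.930), a membrane-bound inhibitor of matrix proteases. Among all 16576 other tested genes, with and without a symbol, the named genes closest to LAMA1 held places 1, 5 and 6, those closest to LAMA2 places 17, 32 and 43, and those closest to LAMB1 places 1, 2 and 3.

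LAMB2 was closest to EPHB4, an ephrin receptor of veins (mean r 0.961), DOCK6 (0.952) and EMP3 (0.945). ITGB3 was closest to GJB6 (0.882), another astrocyte connexin, RAB34 (0.869) and OLFML1 (0.866). ITGB4 was closest to PGM5 (0.952), SELENBP1 (0.933) and MMP14 (0.921), a membrane-anchored matrix protease. ITGB5 was closest to the Notch ligand JAG1 (0.895), the serine synthesis enzyme PHGDH (0.886) and SMO (0.878), the Hedgehog signal transducer. Their places among all other tested genes were 2, 3 and 4 for LAMB2, 1, 3 and 4 for ITGB3, 1, 3 and 4 for ITGB4, and 6, 8 and 12 for ITGB5. GJA1, GJB6 and TBX18 are also in the marker lists above.

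Partners of laminins and integrins were taken from 6 lists. The lists of 8 other laminin chains and 23 other integrin subunits had 0 named genes here, so no other subunit could be followed. Of 17 basement membrane partners 6 were named, with 2 called higher and 2 lower in Lidia and a median log2 difference of 0.61, beside -0.01 over all genes. NID1, which bridges laminin and collagen IV, was at 1.89 ± 0.458 rescaled FPKM in Lidia and 1.07 ± 0.406 in Wagyu (SD, n = 8 each). COL4A1, the chain of collagen IV itself, was at 2.04 ± 0.429 and 2.88 ± 0.518. TINAGL1 was at 2.05 ± 0.723 and 3.31 ± 0.871. COL18A1, the source of endostatin, was at 2.71 ± 0.666 and 1.81 ± 0.844 and was not called.

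Of 16 laminin receptors other than integrins 6 were named, with a median log2 difference of 0.50. BCAM, a receptor for the laminin alpha 5 chain, was called higher, at 13.6 ± 3.54 in Lidia and 8.03 ± 2.96 in Wagyu. SDC4, a syndecan, was at 2.45 ± 0.924 and 3.90 ± 1.23 and was not called.

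Of 15 integrin ligands 10 were named, with 2 called higher, 0 lower and a median of 0.77. Those with the highest levels were not called: CCN3 at 15.9 ± 13.1 in Lidia and 4.67 ± 4.27 in Wagyu, FN1 (fibronectin) at 7.05 ± 5.47 and 2.004 ± 1.36, and POSTN (periostin) at 7.31 ± 7.21 and 1.18 ± 2.47. CCN1 was at 4.63 ± 2.49 and 3.06 ± 1.65. Of 25 cytoplasmic and membrane partners of integrins 8 were named, with 4 called higher and 2 lower and a median of 0.57. The tetraspanins CD81 and CD9 were called higher, at 90.0 ± 17.7 and 67.7 ± 7.51 for CD81 and 48.8 ± 13.05 and 31.6 ± 8.34 for CD9. CD63 was at 47.6 ± 17.9 and 31.8 ± 8.27 without a call. ACTN1, the alpha-actinin that ties integrins to actin, was called lower, at 7.63 ± 1.05 and 10.2 ± 1.45. All these directions were fixed by the list that gave the names. That list holds genes that differed between the breeds, so the counts of calls were largely fixed as well. Between La Quinta and Montealto, 0 genes of any of these lists were called by limma, and of the 30 named partners 1 had an unadjusted p of at most 0.05, against 5.89% of all genes. That was NEDD9, a scaffold protein at integrin adhesions, which was named after its value was seen and differed by -0.46 ± 0.17 on the log2 scale, La Quinta minus Montealto (SE, limma adjusted p = 0.763).

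The transcripts behind the sums could be followed for 6 genes, since ITGB3 has 1 annotated transcript. LAMB1 and LAMB2 each rested on 1 transcript in all animals, of 34 and 33 exons, with the other annotated transcript at under 0.001% of the FPKM. In LAMA1 a transcript of 61 exons took 59.4 to 79.0% in Lidia and 61.0 to 79.0% in Wagyu, and one of 64 exons nearly all of the rest. In ITGB5 a transcript of 15 exons took 58.0 to 95.3% in Lidia and 63.7 to 99.99% in Wagyu. In LAMA2 a transcript of 41 exons and 5895 bases took 42.1 to 99.9985% in Lidia and 45.9 to 99.99% in Wagyu. Cufflinks assigns fragments among overlapping transcripts by likelihood, so the shares are estimates whose error is not included.

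ITGB4 divided between a transcript of 39 exons and one of 40. The share of the 39-exon transcript was 59.1, 48.6, 45.8 and 61.8% in La Quinta bulls 1 to 4 and 78.1, 75.8, 67.2 and 87.3% in Montealto bulls 1 to 4. All 4 Montealto bulls were above all 4 La Quinta bulls, with means of 77.1 ± 8.29% and 53.8 ± 7.81% (SD). The exact two-sided permutation p was 0.0286, the smallest that 4 against 4 animals allow, and over the 20 transcripts tested the adjusted p was 0.286. The share of the 40-exon transcript had the same p in the opposite direction, and 0 of 20 shares passed the adjustment, with 2 at an unadjusted p of at most 0.05. At this size only many shares at the smallest p could have passed. In Wagyu the 39-exon share ran from 0.00479% in bull 12 and 0.0726% in bull 1 to 76.2% in bull 9. Bulls 12 and 1 had low ITGB4, at 0.306 and 0.318 rescaled FPKM, but so had bull 7, at 0.314 with a 39-exon share of 59.9%.

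**Figure D5:**
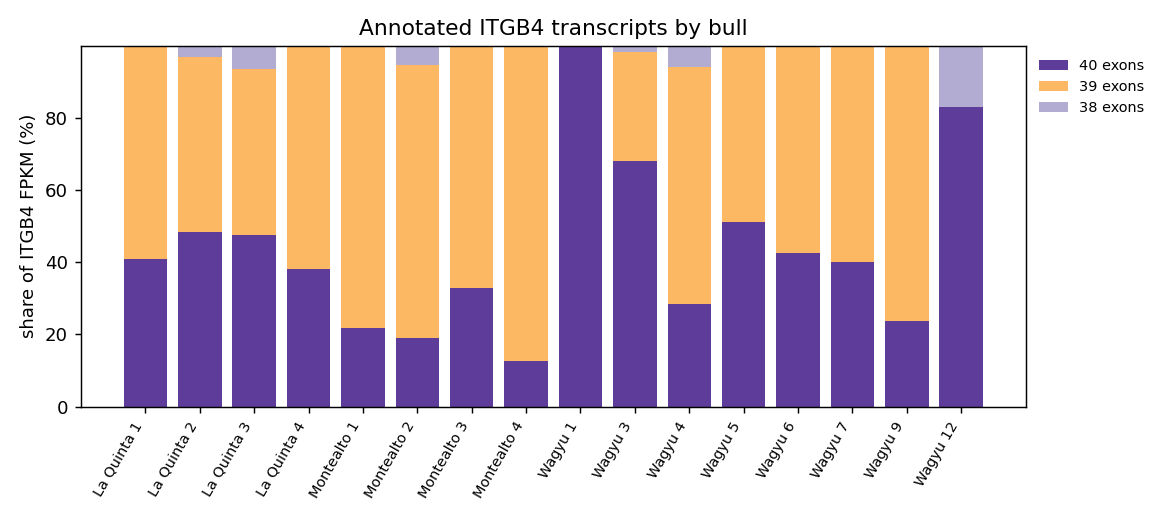
Share of each of 3 annotated ITGB4 transcripts in the ITGB4 FPKM (percent, stacked to 100) in each of the 16 bulls. The 40-exon transcript takes 38.2 to 48.5% in the La Quinta bulls and 12.7 to 32.8% in the Montealto bulls. In Wagyu bulls 1, 12, 3 and 5 it takes 99.9, 83.2, 68.1 and 51.1%, and less in the other Wagyu bulls.

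Depth and mitochondrial share were set beside each gene inside each breed, as 28 coefficients. With the number of fragments r ran from -0.228 to 0.629, and with the mitochondrial share from -0.473 to 0.552. None passed adjustment over the 28 by exact permutation; ITGB3 with fragments in Wagyu, at r = 0.629, had the smallest p (exact permutation p = 0.00308, adjusted p = 0.0861).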

How the data were processed

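PFC RNA of 16 bulls was sequenced, 1 library each. Reads were trimmed by the authors with PRINSEQ, who, per the labels, used STAR 2.7.3a, SAMtools 0.1.18 and Cufflinks 2.2.1, with the Ensembl annotation of ARS-UCD1.2. The deposited FPKM per transcript are scaled within each animal only, and the authors' merging of transcripts and Cuffdiff test came later. No read counts were used here, so precision rests on the spread between animals.

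FPKM were summed per gene and divided by median-of-ratios factors. Of 27607 genes, 16577 with a mean of at least 0.1 were tested with limma 3.58.1 in R 4.3.3 (variance trend, two-sided, Benjamini-Hochberg adjustment), on log2(FPKM + 0.1), with 3 groups for contrasts of farms and 2 for breeds. Correlations and transcript shares used exact two-sided permutation (the smaller tail doubled) in Python 3.11.15 with numpy 2.4.6 and scipy 1.17.1. The steps were tested on simulated data.

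Breeds came from the labels, and farms from the study's list of animals. Animals carry the number in their title or their place in that list. Symbols came from the study's gene list, 1158 of 1197 entries being paired with 1 gene, and RefSeq's table served only for the neighbour of LAMA2. The members and lists were chosen with earlier results of these data known. Named genes were the 7 members, up to 4 per list with the highest mean FPKM, and the 3 named genes most like each member. Exceptions are stated. Some genes that this rule names are not reported here. Alternatives were other scalings, pseudocounts and filters, no trend, Lidia alone, farm centring, Spearman's rho and leaving out each animal. Sequences were not used here.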

Additional observations from a re-analysis of the deposited data

Results flagged for a closer look

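The values of the 7 genes were checked for single animals far from the rest of their group, in each breed and each farm, 28 checks in all, of which chance flags about 1 in 20. ITGB5 in Wagyu was flagged: bull 3 stood at 8.97 rescaled FPKM while the other 7 Wagyu bulls lay between 4.47 and 5.82, so that its gap to the next bull was 0.623 of the whole log2 range, above the critical value of 0.526 for 8 animals. This bull was also the highest Wagyu animal for the other 6 genes, where its gap did not pass. No gene was flagged for a difference between the farms.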

How the results depend on the processing

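The log2 difference between breeds stayed positive for the 7 genes in 166 of 166 refits, but the calls were not stable. The number of the 7 called was 0 in 13 of 24 alternatives and at most 5, and it was 0 in 10 of the 16 in which 1 bull was left out (Wagyu 1, 5, 6, 7, 9 or 12, La Quinta 2, 3 or 4, Montealto 1). Over all genes, 827 were called by limma between Lidia and Wagyu. On the FPKM as deposited there were 0, with 1022 at an unadjusted p under 0.05. Leaving out 1 bull gave 364 to 1425, the highest without Wagyu bull 3. Between La Quinta and Montealto 15 were called, 6 as deposited, 8 with a mean FPKM of at least 1, 7 with the 8 Lidia bulls alone and 6 to 14 without 1 bull. None of the 7 genes was called between the farms under any alternative it was tested in, 25 for 5 genes and 24 for LAMA2 and ITGB3, which were not tested with a mean FPKM of at least 1. On the deposited values the median over all genes moved to 0.32 in that contrast, and the 7 genes have to be read against it.

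Of the 42 pairs of members, 3 were called. There were 34 on the deposited FPKM, 7 with upper-quartile scaling, 8 with a pseudocount of 1, 1 with Spearman's rho, 0 after farm centring and 0 to 7 without 1 bull. Of the 98 pairs with marker lists, 12 were called, 44 as deposited, 4 after farm centring, all of them in Wagyu, and 5 to 15 without 1 bull. Deposited values share a factor within an animal, which enters every gene alike. After farm centring, values were shuffled within farms, where p cannot go below 0.00347, so a lost call may come from the coarse test. An earlier version shuffled them over all 8 bulls and gave 8 and 20, and it was replaced after those counts had been seen. Leaving out Wagyu bull 5 and La Quinta bull 4, chosen after seeing the data, gave 239 genes between breeds, 8 between farms, 1 pair of members and 7 pairs with marker lists. The cause was not tested. No transcript share was called in any of 8 runs without 1 Lidia bull. No paired analysis was possible because the replicate numbers only name animals. LAMA2 has the fewest fragments, and its value is the least precise of the 7.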
